A study of Sus scrofa with 20 samples.

Results

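The hemoglobins HBA2, HBB, HBD and HBM were measured in 20 RNA-Seq libraries made from testis and liver tissue of low and high androstenone boars. The counts were given per reference mRNA sequence, and the members were the 10 reference IDs that the study named as these 4 genes, out of 21755 reference IDs in all. HBA2 had 7 reference IDs (XM_003124684.1 to XM_003124690.1), whose counts were summed to 1 value. HBB (NM_001144841.1), HBD (XM_003129515.1) and HBM (XM_003124683.1) had 1 reference ID each, and all 4 genes passed the filter on low counts in each comparison. The study had listed these genes for their difference between high and low androstenone testis. That difference is therefore described here without a test. The liver comparison rests on values that the choice did not use. The comparison of both tissues and the ratios between the genes are other contrasts, but they include the testis values from which the genes were chosen.

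The samples formed 4 groups of 5: testis of low androstenone boars, testis of high androstenone boars, and liver of low and of high androstenone boars. Androstenone is a testicular steroid that accumulates in fat and contributes to boar taint. All samples were labelled as 116 days old and came from a Duroc × F2 cross, in which F1 animals of Leicoma and German Landrace had been crossed with Large White. Both tissues were frozen right after slaughter, and no perfusion or washing step is stated. Each sample gave 1 library, and samples of both tissues carry the numbers 1 to 5 within each androstenone group. The study's methods name 10 boars, but the labels do not say whether a number marks the same boar in both tissues.

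Hemoglobin, the oxygen carrier of red blood cells, is built from pairs of alpha-type and beta-type chains, each holding a heme group. Red cells of mammals lose their nucleus as they mature, and the youngest circulating ones, the reticulocytes, still carry globin mRNA, which is why hemoglobin transcripts are found in RNA of most tissues that hold blood. The liver makes red cells before birth and later clears free hemoglobin and heme with the binding proteins haptoglobin and hemopexin.

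The testis libraries held 6161397 to 15975386 counts and the liver libraries 5796973 to 26783002. Counts were expressed per 1000000 (CPM) with TMM factors over all 20 samples, and 3 counts, taken as the lowest amount separable from 0, stood for 0.188 to 0.487 CPM of total counts in testis and 0.112 to 0.518 CPM in liver. The labelled tissues matched their markers. The liver protein ALB had 8 to 588 counts in the testis samples and 349118 to 2290810 in the liver samples. The Leydig cell hormone INSL3 was at 1443 ± 905 CPM in low and 1713 ± 822 CPM in high androstenone testis (SD, n = 5 each), and at 0.977 ± 1.80 and 0.137 ± 0.175 CPM in liver.

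The alpha-type chain was represented by HBA2. In low androstenone testis it was at 93.2, 328, 86.7, 758 and 268 CPM in replicates 1 to 5. In high androstenone testis it was at 60.5, 99.4, 115, 37.4 and 85.8 CPM. In all, 3 of the 5 high samples lay below every low sample, 3 of the 5 low samples lay above every high sample, and the others overlapped. In low androstenone liver HBA2 reached 1483, 6057, 3567, 3740 and 6852 CPM. In high androstenone liver it reached 6875, 5324, 10456, 2143 and 637 CPM, so that the highest and the lowest liver samples were both from high androstenone boars. One testis sample, low replicate 4, was above the lowest liver sample, high replicate 5, and the tissues otherwise did not overlap.

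HBB, the main beta-type chain, followed the same order of samples in broad terms. In low androstenone testis it was at 31.9, 96.2, 25.5, 244 and 155 CPM. In high androstenone testis it was at 37.1, 47.5, 39.1, 11.7 and 36.5 CPM, which placed only replicate 4 below every low sample and left replicates 2, 4 and 5 of the low group above every high sample. In low androstenone liver HBB was at 576, 2961, 1523, 1008 and 3055 CPM, and in high androstenone liver at 3382, 3189, 3490, 617 and 477 CPM. The high androstenone livers thus fell into 3 samples near the top and 2 near the bottom of the liver range, and no testis sample reached the lowest liver.

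HBD, a second beta-type chain, was at 5.35, 21.6, 5.60, 52.8 and 34.8 CPM in low androstenone testis. In high androstenone testis it was at 7.18, 10.5, 7.66, 2.26 and 6.43 CPM. It stood at 115, 637, 305, 213 and 573 CPM in low and at 717, 618, 619, 147 and 98.6 CPM in high androstenone liver. As for HBB, low replicates 2, 4 and 5 were above every high sample in testis, the liver groups overlapped, and the tissues did not overlap.

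HBM, an alpha-like globin encoded in the alpha-globin cluster, had few counts in testis. Low androstenone testis held 4, 24, 6, 45 and 28 HBM counts, which is 0.389, 2.56, 0.265, 2.46 and 1.77 CPM. High androstenone testis held 8, 9, 4, 3 and 7 counts, which is 0.425, 0.389, 0.383, 0.357 and 0.671 CPM. The same 3 low samples were again above every high sample, but 7 of the 10 values rested on 9 or fewer counts. In liver HBM was at 15.6, 51.7, 25.5, 27.3 and 41.3 CPM in the low group and at 54.2, 36.3, 54.7, 26.5 and 9.92 CPM in the high group.

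**Figure D1:**
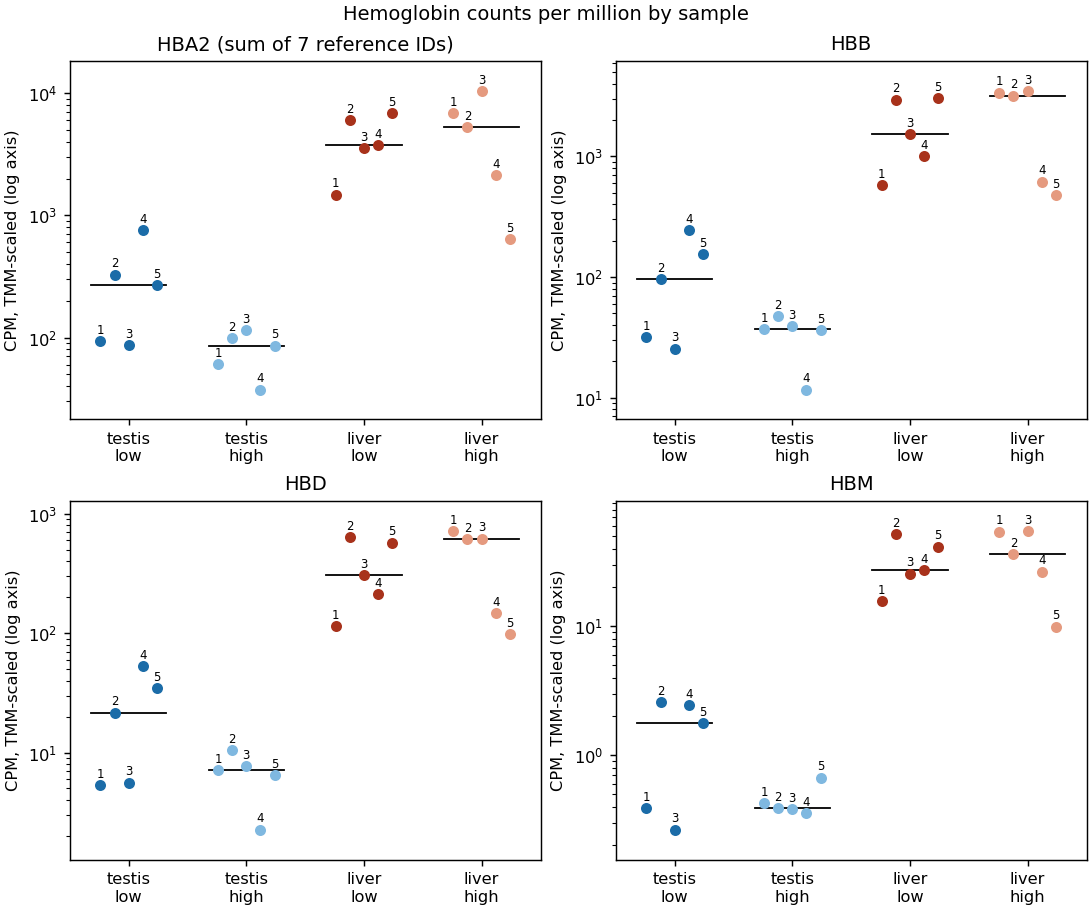
CPM values of HBA2, HBB, HBD and HBM in each of the 20 samples, on log axes, with the replicate number beside each point and a line at the group median (n = 5 each). In testis, low replicates 2, 4 and 5 lie above all high samples for each gene, and in liver the groups overlap.

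The 4 genes together took between 0.00706% and 0.149% of all counts in testis and between 0.107% and 0.886% in liver. Their summed level differed 4.72 to 45.9-fold between liver and testis of the same number in the low group and 9.44 to 105-fold in the high group, and liver was the higher in all 10 pairs of samples. By mean log2 level the order of the groups was testis high (6.82 ± 0.67), testis low (8.33 ± 1.34), liver high (12.44 ± 1.51) and liver low (12.48 ± 0.91; SD, n = 5 each). Both liver groups were closer to each other than their spread, and the testis groups lay far below them. In these bulk tissues, fewer blood cells and less globin RNA per cell cannot be told apart.

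In the fit across all reference IDs, the 4 genes were lower in testis than in liver. The log2 fold change of testis against liver was -4.91 ± 0.50 (SE) for HBA2 with an adjusted p of 1.8e-09, -5.03 ± 0.51 for HBB with 1.6e-09, -4.97 ± 0.49 for HBD with 1.3e-09 and -5.39 ± 0.40 for HBM with 3.6e-12 (edgeR quasi-likelihood test, Benjamini-Hochberg adjustment over 19059 reference IDs). All 4 were called, which required an adjusted p below 0.05 together with a change of 1.5-fold or more. A call was common in this comparison, since 75.7% of all reference IDs were called, 32.2% as lower and 43.5% as higher in testis. A log2 fold change as low as that of HBA2, the smallest of the 4 differences, was found for 677 reference IDs, or 3.55%.

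The scaling shifted this comparison as a whole. The median log2 fold change of all reference IDs was 0.31 with TMM factors and 1.28 with total counts only, and the share of calls that were higher in testis was 57.4% and 76.1%. Relative to that median, HBA2 was at -5.22, HBB at -5.34, HBD at -5.28 and HBM at -5.70 with TMM factors. With total counts the same relative values were -5.13, -5.27, -5.22 and -5.67. The position of the hemoglobins among the other IDs thus moved by less than the SE of each gene between the scalings.

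The tissue difference was present in both androstenone groups. Fitted on low androstenone samples alone, testis against liver gave log2 fold changes of -3.82 ± 0.61 (SE) for HBA2, -4.04 ± 0.64 for HBB, -3.94 ± 0.64 for HBD and -4.45 ± 0.53 for HBM. On high androstenone samples alone the values were -5.99 ± 0.67, -6.01 ± 0.64, -5.99 ± 0.60 and -6.34 ± 0.45. The gap was wider for each gene in the high group, and since this difference contains the testis comparison that chose the genes, it is given without a test.

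Between high and low androstenone testis, the fitted log2 fold change was -1.98 ± 0.50 (SE) for HBA2, -1.71 ± 0.52 for HBB, -1.83 ± 0.54 for HBD and -1.74 ± 0.56 for HBM. These values describe the contrast from which the study had selected the genes. With the edgeR thresholds 0% of the 18334 reference IDs were called in this contrast, 1736 had an unadjusted p under 0.05, and DESeq2 called 52. A value as low as that of HBB was seen for 0.485% of all reference IDs. The selection on this contrast favoured such a rank, so it is a description and no evidence of a decrease. Low replicate 4 alone held 49.4% of the summed CPM of HBA2 and 44.2% of that of HBB in its group. Without it the log2 fold changes were -1.29 ± 0.39 (SE) for HBA2, -1.17 ± 0.46 for HBB, -1.29 ± 0.50 for HBD and -1.43 ± 0.59 for HBM. Without low replicates 4 and 5, the pair highest in HBB, the difference of the mean log2 summed level went from -1.51 to -0.76. It was -1.58 among the libraries with over 10000000 counts (2 high and 3 low) and -1.23 among the others (3 high and 2 low).

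In liver the same comparison gave log2 fold changes of 0.25 ± 0.58 (SE) for HBA2, 0.32 ± 0.58 for HBB, 0.29 ± 0.55 for HBD and 0.21 ± 0.41 for HBM. None of the 4 genes was called, and neither was any other of the 15849 reference IDs (0% called, adjusted p of 1.0 for each of the 4 genes in edgeR). At an unadjusted p under 0.05 there were 466 reference IDs in edgeR and 479 in DESeq2, which called 0 as well, and none of the 4 genes was among them. The fitted fold, an average on the count scale, and the mean of the log2 levels did not have the same sign here, since the mean log2 summed level was 12.48 for low and 12.44 for high androstenone, a difference of -0.04 against a pooled SD of 1.24. The libraries with over 10000000 counts gave 1.06 for this difference (2 high and 3 low), and the others gave -0.70 (3 high and 2 low).

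**Figure D2:**
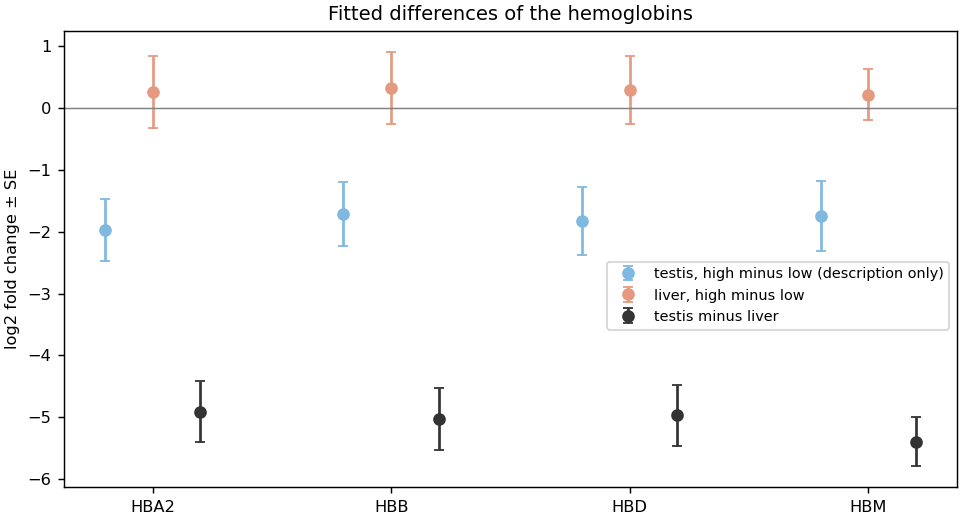
Fitted log2 fold changes (points) with their SE (bars) for the 4 hemoglobins in testis (high minus low), liver (high minus low) and between the tissues (testis minus liver). The liver values lie between 0.21 and 0.32 with SEs that include 0, and the tissue values lie between -4.91 and -5.39.

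The 7 reference IDs of HBA2 moved together. After subtracting group means, the correlation of log2 levels over the 20 samples was between 0.99 and 1.0 for the 21 pairs of IDs. The IDs nevertheless did not share the HBA2 counts evenly. XM_003124684.1 to XM_003124687.1 each held a median of 15.8% to 16.3% of them, and XM_003124688.1, XM_003124689.1 and XM_003124690.1 each held 11.73% to 12.02%, where an even split would give 14.3%. The second set of 3 IDs held 36.6% ± 1.89 of the HBA2 counts in testis and 35.5% ± 1.42 in liver (SD, n = 10 each), a difference that did not pass the permutation test (two-sided, adjusted p = 0.385 over 4 ratios). How reads that fit several of these near-identical sequences were assigned is not stated in the sources used here, so the split over the IDs is uncertain and HBA2 is given as the sum.

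Ratios within a sample do not depend on the library size. HBB counts over HBD counts ranged from 4.19 to 5.96 in the 20 samples, while the HBB level itself ranged from 11.7 to 3490 CPM. The ratio was 4.97 ± 0.54 in testis and 4.93 ± 0.40 in liver (SD, n = 10 each), and the difference did not pass the test (two-sided permutation test, adjusted p = 0.875). After subtracting group means, log2 levels of HBB and HBD had a Pearson r of 0.99 over the 10 testis samples and 1.0 over the 10 liver samples. HBA2 and HBB had 0.94 and 0.93. Pairs of genes in the same sample share its library and scaling, and reads that fit both beta-type sequences could enter either count.

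HBA2 counts over the sum of HBB and HBD counts varied more. The ratio was 2.23 ± 0.56 in testis and 2.03 ± 0.62 in liver (SD, n = 10 each), and it was higher in testis in 5 of the 10 same-numbered pairs (log2 difference 0.15, two-sided permutation test, adjusted p = 0.582). In low androstenone testis it lay between 2.50 and 2.79 in 4 samples and at 1.41 in replicate 5. In high androstenone testis it was at 1.37, 1.72, 2.46, 2.69 and 2.00. In liver it was 2.15 ± 0.54 in the low and 1.91 ± 0.74 in the high group (SD, n = 5 each), which did not differ by the exact two-sided permutation test (adjusted p = 0.762, smallest p possible 0.00794).

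HBM made up a smaller part of the alpha-type counts in testis than in liver. Set against HBA2 counts, HBM counts were 0.565% ± 0.237 in testis and 0.874% ± 0.319 in liver (SD, n = 10 each), and the percentage was lower in testis in 9 of 10 same-numbered pairs. The log2 difference was -0.67 with a permutation p of 0.0168, which did not pass after adjustment over the 4 ratios (two-sided, adjusted p = 0.0671). Of the 4 ratios only HBA2 over HBB plus HBD had been planned as a test, so the test of HBM over HBA2 was itself an addition. That test does not pair the samples. A paired test was also added, after seeing the data, on the same-numbered log2 differences. These ran from -1.34 to 0.13 (mean -0.67, SD 0.52, 10 pairs). The paired test did pass (exact two-sided sign-flip permutation test, p = 0.00586, adjusted 0.0234 over 4 ratios). The call thus depends on whether a number marks the same boar. The precision was limited in testis: the 3 HBM counts of high replicate 4 gave 0.943% of HBM plus HBA2 counts with a 95% exact binomial interval of 0.195% to 2.73%, whereas the 753 counts of liver high replicate 3 gave 0.520% with an interval of 0.484% to 0.558%. These intervals cover counting error only. Among livers the highest percentage of HBA2 counts, 1.56%, was in high replicate 5, the liver with the lowest HBA2 level.

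**Figure D3:**
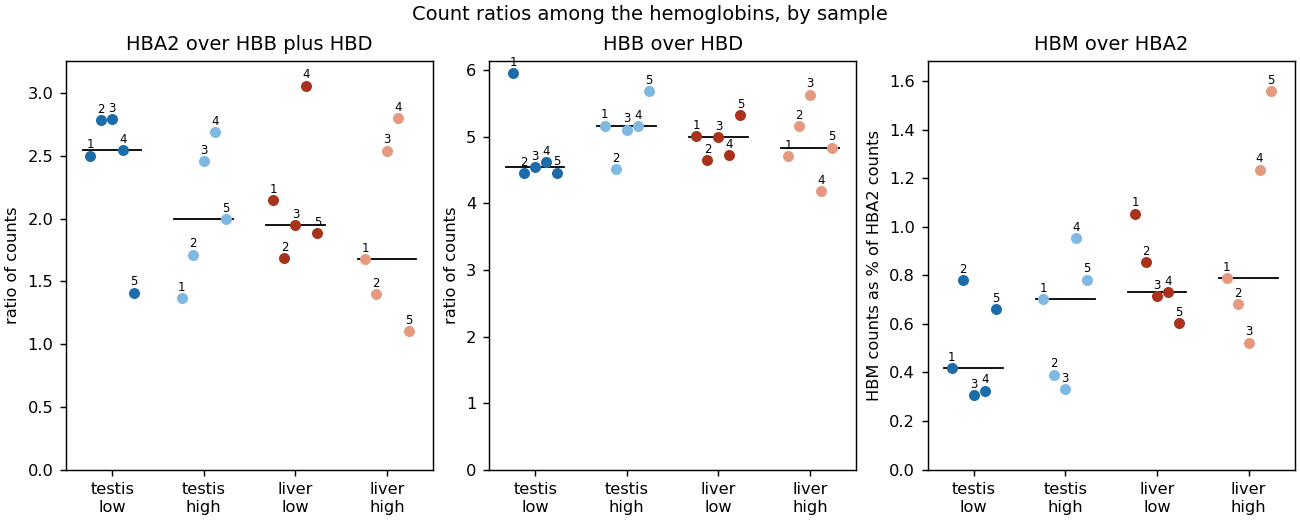
Count ratios among the hemoglobins in each sample, with replicate numbers and a line at the group median (n = 5 each). HBB over HBD stays between 4.19 and 5.96 in all samples, HBA2 over HBB plus HBD spreads from 1.11 to 3.06, and HBM as a percentage of HBA2 spreads from 0.305% to 1.56%.

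Same-numbered testis and liver samples were then compared, because residual blood or the blood of the same boar could give related values in both tissues. For HBB the Pearson r over the 10 pairs was 0.33 (permutation p = 0.35, adjusted 0.561 over 4 genes) and Spearman rho was 0.39 (p = 0.261, adjusted 0.392). For HBD r was 0.36 (p = 0.301, adjusted 0.561) and rho 0.44 (p = 0.204, adjusted 0.392). HBA2 and HBM had r of 0.29 and 0.20 and rho of 0.37 and 0.18, with permutation p from 0.294 to 0.632 and adjusted p from 0.392 to 0.632. No gene passed the test at 10 pairs.

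Leaving out the 2 testis samples farthest from the median changed r to 0.57 for HBB, 0.63 for HBD, 0.34 for HBA2 and 0.06 for HBM. Centred on group means, r was 0.42 for HBB, 0.47 for HBD, 0.33 for HBA2 and 0.27 for HBM. Without the 2 farthest of the centred testis values, it was 0.34 for HBB, 0.36 for HBD, 0.50 for HBA2 and 0.13 for HBM. Leaving out samples thus raised r for HBB and HBD only before centring. Positive values were common in these samples. Among the 10632 reference IDs with a mean of at least 1 CPM in both tissues, the median of the centred r with no sample left out was 0.16. In 23.5% of them it was as high as the 0.42 of HBB. For the summed hemoglobins r was 0.30, centred 0.38, given as a description. The clearest mismatch was low replicate 4, the highest testis sample with 1058 CPM in sum, whose liver, at 4988 CPM, lay below the median of its group.

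Of the ratios, compared between the tissues after the data were seen, HBM over HBA2 had r = 0.59 and rho = 0.68 (permutation p = 0.0761 and 0.0339, adjusted 0.152 and 0.136 over 4 ratios), and r = 0.49 without the 2 farthest samples. HBA2 over HBB plus HBD had r = 0.47 and rho = 0.49 (p = 0.171 and 0.157, adjusted 0.228 and 0.209), and 0.64 without the 2 farthest. HBB over HBD had r = -0.11 and rho = -0.10 (p = 0.767 and 0.784, also after adjustment), and -0.23 without the 2 farthest. The share of the 3 less counted HBA2 IDs had r = 0.81 (p = 0.00909, adjusted 0.0364) but rho = 0.56 (p = 0.0967, adjusted 0.193). That r rested on high replicates 4 and 5 and was 0.21 without them. High replicate 4 had the highest share in both tissues, 41.0% in testis on 315 counts (95% exact binomial interval 35.5% to 46.6%) and 38.7% in liver on 9554 counts (37.7% to 39.7%).

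**Figure D4:**
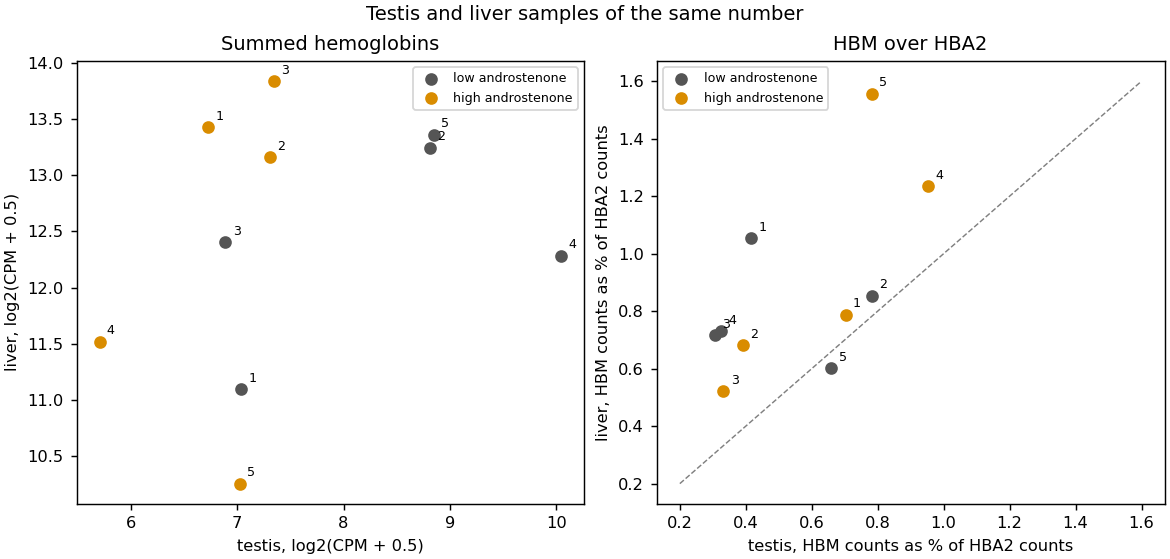
Testis against liver samples of the same number, for the summed hemoglobins as log2(CPM + 0.5) and for HBM counts as a percentage of HBA2 counts, with a dashed line at equal values. The summed levels have r = 0.30 over 10 pairs, and 9 of 10 pairs lie above the line for HBM over HBA2.

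Set against the counts of the liver protein ALB, the summed hemoglobin counts gave a ratio of 0.0156 to 0.111 in the 10 livers. The ratio was 3.37 to 910.5 in the 10 testis samples, which did not overlap with the livers. That gap was set by the denominator, since ALB had only 8 to 588 counts in testis. The hemoglobins themselves were lower in testis, so the ratio does not compare their amounts between the tissues.

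Of 13 other globins on the list used, 3 were matched to a reference ID, and the others were not analysed here. Between the tissues 2 of them were tested, 1 called as lower and 1 as higher in testis, where 32.2% and 43.5% of all IDs were. The embryonic HBE1 had 1 count in all low and 1 in all high androstenone testis samples together, and 10 and 15 counts in the liver groups. On these few counts it was called as lower in testis than in liver (log2 fold change -3.68 ± 0.76 SE, adjusted p = 1.0e-04 in edgeR). The neuronal NGB had 3 counts in testis and 0 in liver. The widely expressed CYGB had 132 counts in the testis samples and 37 in the livers. It was at 1.14 ± 0.98 CPM in low and 0.752 ± 0.440 CPM in high androstenone testis (SD, n = 5 each) and was called as higher in testis than in liver (log2 fold change 1.23 ± 0.48 SE, adjusted p = 0.0237 in edgeR).

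Of 36 genes of red cell structure and transport on the list used, 11 were matched to a reference ID. Between the tissues 10 of them were tested, 5 were called as lower and 2 as higher in testis (32.2% and 43.5% of all IDs), and their median log2 fold change was -1.19 against 0.31 for all IDs. EPB41, which encodes a protein of the red cell membrane skeleton, was called as lower in testis at -1.74 ± 0.20 (SE, adjusted p = 1.5e-08 in edgeR). The Rh-associated RHAG went the other way, at 9.44 ± 3.28 CPM in low and 10.2 ± 0.857 CPM in high androstenone testis (SD, n = 5 each) with 1 count in all livers together.

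Regulators and receptors of red cell formation differed in level, and 5 of the 12 on the list were matched to a reference ID. KLF1, a globin-activating factor, had 3 counts in all 20 samples. NFE2 had 2 counts in the testis samples and 40 in the livers, and EPOR, the erythropoietin receptor, stayed at or below 1.36 CPM in each sample. TFRC, the transferrin receptor of many cell types, was at 7.97 ± 2.02 CPM in testis and 32.9 ± 20.1 CPM in liver (SD, n = 10 each). Between the tissues 4 of the list's IDs were tested and all 4 were called as lower in testis, where 32.2% of all IDs were called as lower, with TFRC at -1.99 ± 0.28 (SE, adjusted p = 4.8e-07 in edgeR).

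Of the 5 matched genes of heme synthesis 3 were called as lower in testis and none as higher, against 32.2% and 43.5% of all IDs. ALAS1, the enzyme of the first step of heme synthesis outside red cells, was among them at -2.70 ± 0.32 (SE, adjusted p = 2.6e-08 in edgeR). In liver ALAS1 was at 321 ± 107 CPM in the low and 138 ± 50.1 CPM in the high group (SD, n = 5 each), and its log2 fold change of -1.17 ± 0.35 (SE) was not called (adjusted p = 1.0 in edgeR). Of the 6 matched genes of hemoglobin and heme clearance 5 were called as lower in testis and none as higher. Haptoglobin (HP) was at 52544 ± 14098 CPM in low and 52447 ± 29983 CPM in high androstenone liver, and at 3.71 ± 2.73 and 6.53 ± 5.74 CPM in testis. None of the genes of the heme lists was called between high and low androstenone in either tissue by edgeR, and 1 heme synthesis gene in liver and 1 clearance gene in testis had an unadjusted p under 0.05.

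Markers of other blood and vessel cells were read beside the hemoglobins. Between high and low androstenone testis, 0 of 12 lymphocyte IDs were called, 4 had an unadjusted p under 0.05, and their median log2 fold change was -0.80 against -0.02 for all IDs. CD3E, a chain of the T cell receptor complex, was at 2.87 ± 0.71 CPM in the low and 1.06 ± 0.42 CPM in the high group (log2 fold change -1.45, adjusted p = 0.323 in edgeR). CD247 and GZMB went the other way, at 0.36 and 0.48, as the only IDs of the list with a fitted level higher in the high group. The summed level of the lymphocyte IDs was 37.7 to 83.5 CPM in the low and 56.1 to 102 CPM in the high group, so the sum did not go the way of the median. The 4 endothelial IDs had a median of -0.58, with summed levels of 18.6 to 56.3 CPM in the low and 19.5 to 40.6 CPM in the high group, and 0 were called while 2 had an unadjusted p under 0.05. CD5 and EDN1 on these lists had themselves been picked by the study on this contrast.

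Neutrophil and monocyte IDs had a median of 0.02 in this contrast over 7 tested, and 3 platelet IDs had -0.20, with none called in edgeR and 0 at an unadjusted p under 0.05. Their summed levels were 3.79 to 14.1 CPM and 24.98 to 61.02 CPM in low androstenone testis, and 5.83 to 8.29 CPM and 20.1 to 49.0 CPM in high androstenone testis. The platelet chemokine PPBP had 0 counts in the testis samples, and ELANE, MMP8 and GP1BB had under 10 counts over all 20 samples. In liver, where the hemoglobin groups overlapped, none of the IDs of these 4 lists was called in edgeR and 0 had an unadjusted p under 0.05.

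Across the 10 samples of a tissue, after subtracting group means, the mean log2 level of 6 such lists was set against the level of HBB. In liver the lymphocyte list had r = 0.77 and rho = 0.83 (permutation p = 0.0125 and 0.00469, adjusted 0.127 and 0.0563 over 12 relations), and 0.77 without the 2 farthest samples. The neutrophil and monocyte list had r = 0.73 and rho = 0.73 in liver (p = 0.0211 and 0.0205, adjusted 0.127 and 0.123), and 0.91 without the 2 farthest. In testis the endothelial list had r = 0.65 and rho = 0.60 (p = 0.0412 and 0.0723, adjusted 0.165 and 0.289), which fell to 0.19 without the 2 farthest samples. The red cell list had r = 0.39 in testis (-0.14 without the 2 farthest) and 0.06 in liver (0.69), and the list of red cell regulators had 0.10 (0.05) and 0.55 (0.19). The platelet list had 0.49 in testis (0.15) and -0.10 in liver (-0.24). In testis the lymphocyte list had 0.44 (0.44) and the neutrophil and monocyte list 0.52 (0.25), and in liver the endothelial list had -0.01 (0.31). The rho of these 9 relations ran from -0.03 to 0.44, with permutation p of r from 0.098 to 0.981 and of rho from 0.205 to 0.972, and adjusted p from 0.294 to 0.981 and from 0.533 to 0.972. No relation passed after adjustment. Their part in the hemoglobin levels was not tested.

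The genes whose pattern was most like that of the summed hemoglobins were named by Pearson r over the 10 samples of a tissue after subtracting group means, as a description. In testis these were DPT, an extracellular matrix protein (r = 0.87), TNXB, a tenascin (0.86), MGP, matrix Gla protein (0.86), BEND4 (0.85) and FBXO32, a ubiquitin ligase subunit (0.85), among 4377 named IDs. DPT and MGP had r of 0.80 and 0.75 in liver as well, while TNXB had -0.19, BEND4 -0.36 and FBXO32 0.29. In liver the leading genes were DHX8, an RNA helicase (0.93), SDR39U1 (0.90), FETUB, a secreted liver protein (0.89), NDUFB11, a subunit of respiratory complex I (0.88) and SUCLG2, a subunit of succinyl-CoA ligase (0.87), among 4178 named IDs. The r of these genes in testis was -0.32 for DHX8, 0.07 for SDR39U1, -0.41 for FETUB, 0.52 for NDUFB11 and 0.25 for SUCLG2. Over all IDs with a mean of at least 1 CPM, the median r was -0.01 in testis and 0.12 in liver, and the 95th percentile was 0.55 and 0.68.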

How the data were processed

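RNA of testis and liver was reverse transcribed with the SMART cDNA kit, and each sample was sequenced as single 100 bp reads on 1 lane of 1 flow-cell. According to the methods and the submitters' processing notes, reads were filtered with CASAVA 1.7 and aligned with BWA to reference mRNA sequences of Sscrofa 9.2, and SAMtools was used. The authors deposited raw counts per reference ID, not normalized, and how reads with several matches were counted is not given in the sources used here. Each sample listed 21785 lines for 21755 IDs, because 10 IDs were listed 4 times, and these were used once. The 7 HBA2 IDs were summed, which left 21749 rows. Gene symbols of 6692 IDs came from the study's tables and a RefSeq gene table of another assembly, from which no coordinates were taken.

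Rows with a sum of 10 counts or more in a fit were tested with edgeR 4.0.16 (R 4.3.3, TMM, quasi-likelihood test, Benjamini-Hochberg) and called where the adjusted p was below 0.05 and the change 1.5-fold or more. Tissues were compared over all 20 samples with 4 group means. Levels are CPM with TMM factors over the 20 samples, and logs are log2(CPM + 0.5). Ratios were compared by two-sided permutation tests (100000 resamples, or exact for 5 against 5), and correlations by permutation with 100000 resamples. Among the ratios only the test of HBA2 over HBB plus HBD had been planned. Intervals are exact 95% binomial intervals. According to the study, both tissues came from the same 10 boars. On simulated data with 200 changed genes at a log2 fold change of 2, 76.5% were recovered in the liver comparison (15600 genes), 92.5% in testis (18141) and 99.0% between tissues (18924).

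The members and gene lists were chosen with earlier results of these data known. Named genes were the 4 hemoglobins, some genes of the lists and the 5 most alike per tissue. The plan put called genes of the lists first and then those with more counts, but the naming did not keep to that order. Of the red cell list, SELENBP1 (called as lower in testis) and BNIP3L (called as higher) had more counts than EPB41 and RHAG. Alternatives were RLE factors, total counts, other filters, DESeq2 1.42.0, single HBA2 IDs, a replicate block, a term for libraries over 10000000 counts, single androstenone groups, other pseudocounts and leaving out each sample. Sequences of the genes were not used here.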

Additional observations from a re-analysis of the deposited data

Results flagged for a closer look

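In all, 4 values stood apart from the other samples of their group by Dixon's test at the 95% level, among 32 groups of 5 that were tested, of which chance flags about 5%. HBB was lowest in high androstenone testis replicate 4, at 11.7 CPM from 98 counts, and HBM was highest in high androstenone testis replicate 5, at 0.671 CPM from 7 counts. The count ratio of HBA2 to HBB plus HBD was lowest in low androstenone testis replicate 5, at 1.41. The count ratio of HBB to HBD was highest in low androstenone testis replicate 1, at 5.96, where HBD had 55 counts. The genes and ratios were measured in the same samples and are not independent.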

How the results depend on the processing

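All 4 hemoglobins were called as lower in testis than in liver under each of the 30 alternatives, with log2 fold changes between -3.82 and -6.34, and 12171 to 14919 IDs were called. In liver 0 IDs were called between high and low androstenone under each of 19 alternatives, and the log2 fold change of HBA2 was -0.17 to 0.54 with 1 liver left out, turning negative without high replicate 3. The difference of the mean log2 summed level in liver was -0.04, became 0.0062 with total-count CPM, and ranged from -0.39 to 0.51 when 1 liver was left out, so that it carries no direction. It was positive without low replicates 2 or 5 and without high replicates 4 or 5. In testis DESeq2 called 52 IDs, and leaving out 1 sample gave 0 to 2 calls (2 without low replicate 5 or high replicate 1). The median log2 fold change of the 4 genes there was -1.41 to -1.83 under the other settings and -1.29 to -2.06 with 1 sample left out, and HBM did not pass a filter of 1 CPM in 5 samples. The ratio of HBM to HBA2 kept its direction in 20 of 20 fits with 1 sample left out (-0.77 to -0.57), and HBM over HBB, added after seeing the data, gave -0.52 (permutation p = 0.0738). The r of the same-numbered samples was 0.03 to 0.40 under other settings and 0.19 to 0.47 with 1 number left out, and none of these passed the test. It was not computed within the androstenone groups, since 5 pairs are too few.

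Same-numbered testis and liver samples had deviations from the group means that correlated between -0.06 and 0.43, over 0.1 in 7 of 10 pairs. The mean was 0.14, against -0.04 for samples of other numbers in the same group. Each testis sample was compared with the 5 livers of its group, and 4 of 10 correlated best with the liver of their own number. Whether a number marks 1 boar is not known, and the threshold of 0.1 for treating the samples as pairs was not met in all 10. Paired by number, the ratio of HBM to HBA2 passed after adjustment (adjusted p = 0.0234), and no other ratio did. With a replicate block 14194 IDs were called between the tissues, the 4 genes among them at -4.90 to -5.44. Within a tissue, a block by number joins a low androstenone boar to a high androstenone boar, which are different animals. There the block is no adjustment for the boar. With it 0 IDs were called between high and low androstenone in either tissue. For HBA2, HBB, HBD and HBM this block gave -1.52, -1.24, -1.33 and -1.50 in testis. In liver it gave 0.04, 0.19, 0.18 and 0.15.

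With 3 to 45 HBM counts per testis sample, its level and ratio there were limited by depth.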
